A study of Mus musculus with 9 samples.

Results

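CC chemokines are small secreted proteins that attract leukocytes, and they act through G protein-coupled receptors on the cells that answer them. The genes described here are the 7 chemokine genes Ccl2, Ccl3, Ccl4, Ccl5, Ccl6, Ccl7 and Ccl9 and the 2 receptor genes Ccr1 and Ccr2, in CD11b+ cells of mouse spleen. They were taken by symbol: every probe set of the array that carries exactly 1 of these 9 symbols was used, which gave 9 of 12488 probe sets, 1 for each gene. All 9 passed the filter on low values and were tested. CD11b is integrin alpha M, an adhesion receptor of neutrophils, monocytes, macrophages and some other leukocytes. Splenic cells carrying it came from females between 8 and 12 weeks old, and their RNA was measured on 9 arrays (Affymetrix MG-U74Av2), 3 for each of 3 groups. Cultured tumor-bearing cells came from mice with a tumor and spent 24 h in complete medium, fresh tumor-bearing cells came from mice with a tumor and were not cultured (0 h), and tumor-free cells came from mice without a tumor. The labels used here do not name the tumor, and tumor-free cells were not cultured. Whether replicates are separate animals is not stated, so p-values here reflect the spread among the arrays, which may be technical.

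In background, Ccl2 and Ccl7 are ligands of Ccr2, the receptor that inflammatory monocytes use to leave the bone marrow and enter tissue. Ccl3 and Ccl5 bind Ccr1, and so do Ccl6 and Ccl9, chemokines described in mouse myeloid cells. Ccl2, Ccl3, Ccl4 and Ccl7 are typically switched on by inflammatory stimuli, whereas Ccl5 is a product of T cells, NK cells and stimulated myeloid cells. In tumors the Ccl2 and Ccr2 pair is known for drawing monocytes that become suppressive macrophages.

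The members lie in 3 groups of neighbours. In RefSeq's mouse gene table, Ccl2 and Ccl7 follow each other on chromosome 11 and are followed by Ccl11, Ccl12, Ccl8 and Ccl1, with 0 protein-coding genes between them. On the same chromosome, 25 protein-coding genes further on, Ccl5, Ccl9, Ccl6, Ccl3 and Ccl4 stand in a row. Ccr1 and Ccr2 are on chromosome 9, with Ccr1l1 and Ccr3 between them. Ccl9 and Ccl6 are direct neighbours on the same strand. Of the 9 members 5, namely Ccl3, Ccl6, Ccl9, Ccr1 and Ccr2, matched RefSeq's promoter table (GRCm38.p6). The stretches of Ccl9 (chr11:83578607-83578706, minus strand, 70 bases before to 30 after the annotated start) and of Ccl6 (chr11:83593088-83593187, minus strand, the 100 bases before the start) are shown because these neighbours share letters there and their ratio is compared after culture. Capitals mark exact runs of at least 8 bases that occur in both stretches:
Ccl9: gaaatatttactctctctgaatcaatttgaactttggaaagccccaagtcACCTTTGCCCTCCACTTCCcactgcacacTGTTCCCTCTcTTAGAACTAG
Ccl6: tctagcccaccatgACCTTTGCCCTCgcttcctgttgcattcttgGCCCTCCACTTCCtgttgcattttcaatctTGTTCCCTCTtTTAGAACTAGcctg
The capitals cover 39 bases of the Ccl9 stretch and 45 of the Ccl6 stretch. The longest shared run, GCCCTCCACTTCC, was found on either strand in 6 of 32851 promoter windows of the table (0.0183%), of which these 2 are members. A shared run is a description of the letters and no evidence of a binding site. The likeness is not particular to this pair. Aligned over the 250 bases before the start, Ccl6 and Ccl9 were 63.1% identical. Pairs among the 5 promoters ran between 58.1% (Ccl3 and Ccr2) and 67.0% (Ccl3 and Ccl6).

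A signal is the MAS5 value of a probe set, a brightness on a linear scale, and its log2 value was taken after adding an offset of 7.83. Probe sets differ in their probes, so genes are not ranked by level, and a summed signal of marker genes, in which the brightest weigh most, is compared only between arrays. The sort marker gene Itgam had signals between 332.6 and 954 on cultured, between 391.8 and 585 on fresh and between 243.8 and 373 on tumor-free arrays. One array in each group stood apart from a similar pair: the lowest correlation with its group was 0.824 for tumor-free 1, 0.874 for fresh 3 and 0.850 for cultured 3 (r across 8695 probe sets, which are not independent replicates), against 0.957, 0.949 and 0.929 within the pairs. On tumor-free 1 the neutrophil granule genes Camp and Ltf were at 149.9 and 101.5, against at least 8809 and 2774 on its pair, and on cultured 3 they were at 7702 and 3699, against at most 2542 and 577. The bacterial spike-in controls of these arrays differed too, with a mean log2 signal of 10.36 on tumor-free 1 against at most 9.77 on its pair, and of 9.25 on cultured 3 against at least 10.49. Each comparison is also given without tumor-free 1. That array was singled out with the members' values known, and leaving it out lowers the spread of several members by construction, so the members that pass only then are not independent support for a difference.

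**Figure D1:**
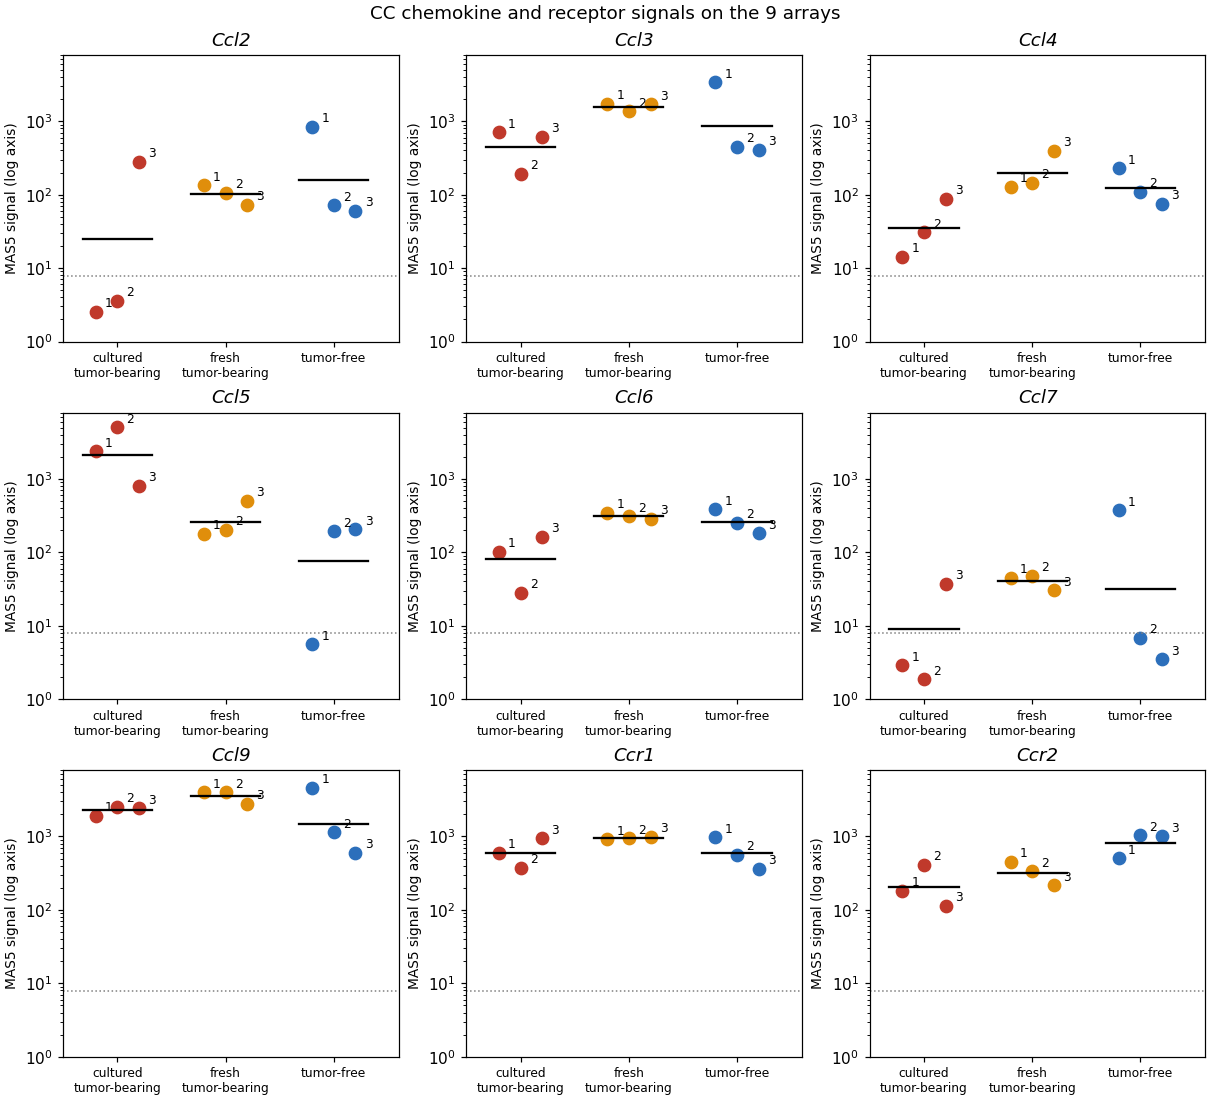
MAS5 signal (log axis) of the 9 genes on every array, by group, with the replicate number beside each point; the bar is the mean of log2(signal + 7.83) turned back to a signal, and the dotted line is the offset. Tumor-free 1 is the highest of its group for Ccl2, Ccl3, Ccl4, Ccl6, Ccl7, Ccl9 and Ccr1 and the lowest for Ccl5 and Ccr2.

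The comparison of cultured with fresh tumor-bearing cells asked what 24 h in medium does to these cells. Ccl5 had the higher signals in cultured cells, and Ccl3, Ccl4, Ccl6 and Ccl9 the lower, each with no overlap between the groups. With all 9 arrays none of the 9 members passed the threshold of 0.05 on limma's adjusted p, where 2.69% of all probe sets tested did. An unadjusted p below 0.05 was reached by 1 member with a higher and 3 with a lower signal, where 10.1% of all probe sets were higher and 6.19% lower (16.3% in all). The groups did not overlap for 1 higher and 4 lower members, against 13.4% and 8.81% of all probe sets (22.2% in all). The median log2 fold change was -1.52 over the members and 0.02 over all probe sets. The 3'/5' ratio of beta-actin, a measure of RNA integrity, was 2.27, 2.36 and 1.16 on cultured 1, 2 and 3. On fresh arrays it was 1.59, 1.58 and 1.35. The part of RNA integrity in the members' signals was not tested. Genes of pancreatic acinar cells, which are not splenic, moved with the same groups: 9 of 10 tested fell, and their summed signal was 423 to 918 on cultured and 9062 to 14799 on fresh arrays. The macrophage sum was 3648 to 4606 on cultured and 2205 to 2402 on fresh arrays (1 gene rose and 1 fell of 11 tested). Most of that sum on each cultured array was Hmox1, with 2606, 3273 and 2662, against 864, 939 and 784 on fresh arrays. The macrophage list's median log2 fold change was -0.73, with 5 genes higher and 6 lower, so its sum does not stand for the list. The basophil and mast cell sum was 262 to 1095 on cultured and 1695 to 2978 on fresh arrays (none of 4 tested passed). Their part in the members' signals was not tested.

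Ccl5 (probe set 98406_at) encodes RANTES, an attractant of T cells, eosinophils and monocytes. It had signals of 2387, 5019.8 and 804 on cultured arrays 1, 2 and 3, against 177.5, 201 and 500.4 on fresh arrays. Every cultured array lay above every fresh one, with cultured 3 the nearest to fresh 3. Its log2 fold change was 2.99 ± 0.99 (SE, n = 3 each; 95% interval 0.81 to 5.16, limma adjusted p = 0.148). Without tumor-free 1, which is not part of this comparison and only adds to the shared estimate of spread, the same fold change had an SE of 0.58 and passed (adjusted p = 0.0144). Over all alternatives its adjusted p ranged between 0.000707 and 0.691.

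Markers of cells that could supply Ccl5 were read beside it. With all 9 arrays, none of 9 tested T cell and none of 8 tested NK cell marker genes passed the test in this comparison. Of the 8 NK cell genes, 6 had a higher signal in cultured cells, with a median log2 fold change of 0.55. Il2rb and Klrc1 were lower, at -0.58 and -0.29. The defining NK cell marker Ncr1 failed the filter on low values. It had 9.33, 3.63 and 9.34 on cultured arrays, against 20.8, 2.26 and 7.88 on fresh arrays. Klrk1, an activating receptor of NK cells and some T cells, had 38.9, 54.0 and 41.6 on cultured arrays, against 4.85, 20.8 and 10.8 on fresh arrays, with no overlap and its highest value on the same array as Ccl5. Its log2 fold change of 1.47 passed without tumor-free 1 (limma adjusted p = 0.0422), as that of Ccl5 did, but not with all arrays (adjusted p = 0.141). Klrk1 was chosen after its values were seen, and on fresh 1 it was below the offset. The summed signal of the 14 T cell genes on the array was 471 to 593 on cultured and 526 to 623 on fresh arrays, with the T cell receptor chain gene Cd3e between 13.4 and 18.2 on cultured and between 16.0 and 26.5 on fresh arrays. The summed signal of 10 NK cell genes was 353, 297 and 699 on cultured 1, 2 and 3, against 347, 363 and 192 on fresh arrays. Of the 699 on cultured 3, Gzmb gave 341. The cultured array with the most Ccl5 had the least summed NK signal of its group, and the one with the least Ccl5 had the most. For 7 dendritic cell genes the sums were 1414, 2026 and 1128 on cultured arrays, in the same order of arrays as Ccl5. On fresh arrays they were 1754, 1666 and 1372, in the reverse order of Ccl5. Their part in the Ccl5 signal was not tested, and in sorted bulk samples a change in the share of a cell type and a change of RNA per cell cannot be told apart.

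The inflammatory chemokine genes Ccl3 and Ccl4, which encode MIP-1 alpha and MIP-1 beta and lie next to each other, both had lower signals in cultured cells. Ccl3 (102424_at) had 709, 191.3 and 618 on cultured arrays, against 1714, 1369 and 1699 on fresh arrays, and no cultured value reached the fresh group. Its log2 fold change was -1.83 ± 0.73 (95% interval -3.45 to -0.22, limma adjusted p = 0.230). Ccl4 (94146_at) had 14.2, 30.9 and 88.1 on cultured arrays, against 127.6, 145.2 and 397.5 on fresh arrays. All 3 cultured values lay below the lowest fresh value, and each group had its highest value on replicate 3. For Ccl4 the log2 fold change was -2.23 ± 0.59 (95% interval -3.53 to -0.92, adjusted p = 0.0765). Without tumor-free 1 both passed, with adjusted p = 0.0286 for Ccl3 and 0.0410 for Ccl4. Their adjusted p over all alternatives ranged between 0.00559 and 0.680 for Ccl3 and between 0.00314 and 0.410 for Ccl4.

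Ccl6 and Ccl9 are the neighbours whose sequences are printed above. Ccl6 (92849_at) had 101.2, 28.3 and 163.2 on cultured arrays, against 344.5, 310.6 and 287.6 on fresh arrays, and no cultured value reached the fresh group. Its log2 fold change was -1.87 ± 0.49 (95% interval -2.96 to -0.79, limma adjusted p = 0.0721), and it passed without tumor-free 1 (adjusted p = 0.0444; 0.000998 to 0.419 over all alternatives). The 16 neutrophil marker genes, summed, were at 38762, 16431 and 48588 on cultured 1, 2 and 3, and at 62416, 59915 and 51075 on fresh arrays. Within both groups this was the same order of arrays as for Ccl6. On tumor-free 1, 2 and 3 the order was the reverse, with sums of 34563, 45430 and 50744 and Ccl6 at 383.5, 252.3 and 181. In cultured against fresh cells 2 genes of that list, Mpo and Prtn3 of the primary granules, fell and none rose, and the list's median was -1.43. The part of neutrophils in the Ccl6 signal was not tested. Ccl9 (104388_at) had 1927, 2514 and 2426 on cultured arrays, against 3987, 3992 and 2766 on fresh arrays. The groups did not overlap, but cultured 2 and fresh 3 lay close together, and the log2 fold change was -0.63 ± 0.58 (95% interval -1.92 to 0.66, adjusted p = 0.672).

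The ratio of Ccl6 to Ccl9 within each array was set between the groups. The log2 fold changes of Ccl6 and Ccl9 differed by -1.24 on the log2 scale (SE 0.73), with every cultured ratio below every fresh one (exact two-sided permutation p = 0.1, the smallest that 3 against 3 arrays allow; adjusted p = 0.4 over 12 such ratios). These ratios, for 4 pairs of members in 3 comparisons, were chosen after the values were seen. The ratio of Ccl4 to Ccl3 differed by -0.39 (SE 0.96, exact p = 0.8) in the same comparison, and its groups overlapped.

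The Ccr2 ligand genes Ccl2 and Ccl7 were split within the cultured group. Ccl2 (102736_at) had 2.54 and 3.57 on cultured 1 and 2 but 279.7 on cultured 3, against 134.4, 105.3 and 72.2 on fresh arrays. Ccl7 (94761_at) had 2.88 and 1.87 on cultured 1 and 2 but 37.5 on cultured 3, against 44.9, 47.5 and 30.5 on fresh arrays. On cultured 1 and 2 both signals were thus below the offset, where a level has little meaning, while on cultured 3 Ccl2 was above and Ccl7 within the fresh range. Their log2 fold changes were -1.75 ± 1.23 (95% interval -4.45 to 0.96) for Ccl2 and -1.52 ± 1.12 for Ccl7, with limma adjusted p = 0.546 and 0.571. Without cultured 3 the change of Ccl2 was -3.32 and that of Ccl7 was -2.24, and neither passed.

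Of the receptor genes, Ccr1 (99413_at), the receptor of Ccl3, Ccl5, Ccl6 and Ccl9, had 601, 376.4 and 949.5 on cultured arrays, against 917, 945.5 and 992 on fresh arrays. The fresh arrays were close to each other, and cultured 3 lay among them. Ccr2 (93397_at) had 182.7, 414.8 and 113 on cultured arrays, against 452.5, 333.3 and 216.2 on fresh arrays, with overlapping groups. Their log2 fold changes were -0.66 ± 0.39 and -0.62 ± 0.47 (adjusted p = 0.455 and 0.582). The intervals, -1.53 to 0.21 and -1.65 to 0.41, leave room for falls of over 1 on the log2 scale.

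**Figure D2:**
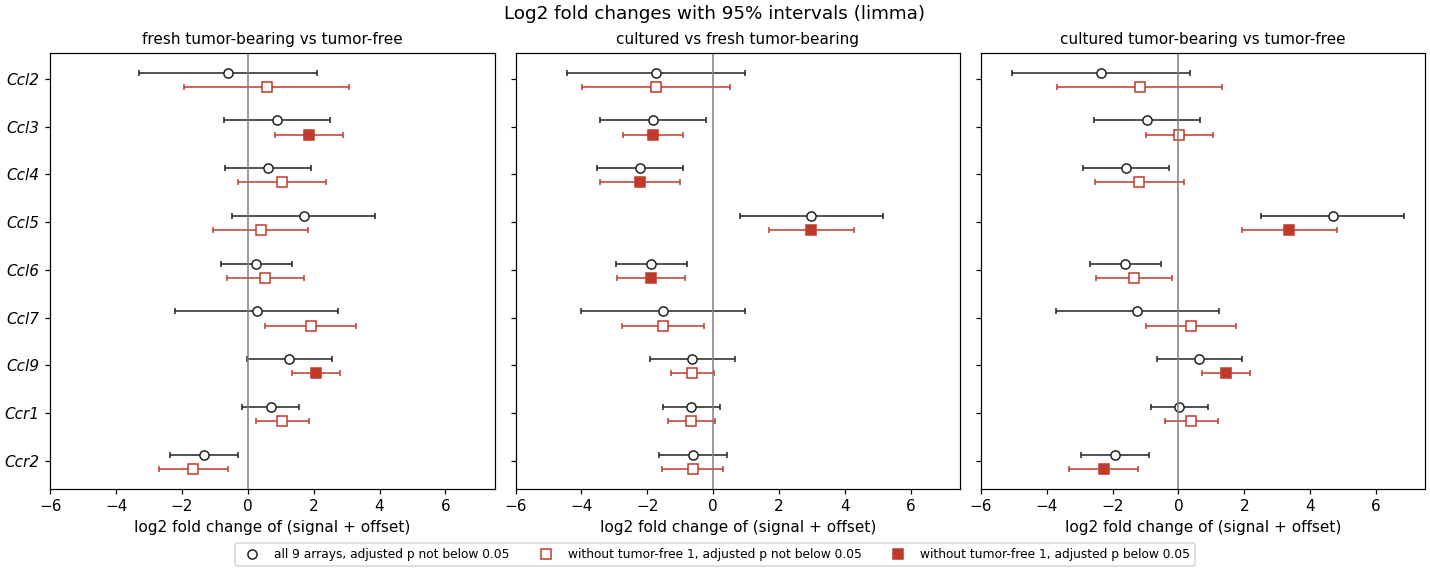
Log2 fold change of log2(signal + 7.83) with its 95% interval for each gene in the 3 comparisons, for all 9 arrays (circles) and without tumor-free 1 (squares; filled where limma's adjusted p was below 0.05). No circle is filled; without tumor-free 1 the filled squares are Ccl3 and Ccl9 on the left, Ccl3, Ccl4, Ccl5 and Ccl6 in the middle, and Ccl5, Ccl9 and Ccr2 on the right.

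The comparison of fresh tumor-bearing with tumor-free cells asked how a tumor elsewhere in the animal goes with the state of splenic CD11b+ cells. Ccr2 had lower signals in fresh tumor-bearing cells, with no overlap. The members except Ccl5 and Ccr2 were higher on every fresh array than on tumor-free 2 and 3, but none of them had all fresh arrays above tumor-free 1. How many of all probe sets had that arrangement was not counted, and tumor-free 1 was set aside with the members' values known. It is therefore a description of the arrays and not a result about the members. With all 9 arrays none of the 9 members passed limma's test, where 1.9% of all probe sets did. Only Ccr2 reached an unadjusted p below 0.05, where 9.66% of all probe sets were lower and 16.7% reached it in either direction. Ccr2 was also the one member whose groups did not overlap, where 13.1% of all probe sets were lower without overlap and 22.4% in either direction. The members' median log2 fold change was 0.62, and that of all probe sets was 0.01. Sums of 4 marker lists did not overlap between these groups. Of the pancreatic acinar genes 9 of 10 rose, with a summed signal of 9062 to 14799 on fresh and 452 to 693 on tumor-free arrays, and 5 of 11 tested macrophage genes fell, with 2205 to 2402 on fresh and 4471 to 14709 on tumor-free arrays. The neutrophil sum was 51075 to 62416 on fresh and 34563 to 50744 on tumor-free arrays, with 13 of 16 genes higher, a median of 1.19 and 2 genes that fell. The erythroid sum was 4905 to 6507 on fresh and 605 to 2339 on tumor-free arrays, with 6 of 7 tested genes higher and none that passed. Their part in the members' signals was not tested.

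Ccr2 had 452.5, 333.3 and 216.2 on fresh arrays, against 504, 1043 and 1011 on tumor-free arrays. Tumor-free 1 was nearest to the fresh group, and its pair was more than 2 times the highest fresh value. The log2 fold change was -1.32 ± 0.47 (95% interval -2.35 to -0.29, limma adjusted p = 0.188), and -1.66 without tumor-free 1 (adjusted p = 0.0603; 0.0107 to 0.679 over all alternatives). This was not particular to Ccr2. Ccr3 (-1.45 ± 0.45, adjusted p = 0.131) and Ccr6 (-1.52 ± 0.61, adjusted p = 0.241) were also lower without overlap. Both passed without tumor-free 1 (adjusted p = 0.0152 and 0.0212). The remaining 4 of the 6 other CC receptor genes tested were higher in fresh cells. Of 5 monocyte marker genes on the array none passed in this comparison, and their median was -0.73. The colony-stimulating factor receptor gene Csf1r had 1163, 1240 and 873 on fresh arrays, against 1059, 2248 and 2422 on tumor-free arrays, so it too was lower on all fresh arrays than on tumor-free 2 and 3. Cx3cr1, a receptor of patrolling monocytes, had 35.4, 117.3 and 43.7 on fresh arrays, against 53.8, 220.1 and 178.9 on tumor-free arrays. Fcgr1 had 144.6, 138.3 and 51.0 on fresh arrays, against 370.7, 307.0 and 281.6 on tumor-free arrays. Its groups did not overlap (log2 fold change -1.57 ± 0.61, limma adjusted p = 0.222). The summed signal of the 5 genes was 12526 to 14205 on fresh and 8869 to 12578 on tumor-free arrays. In fresh cells 3 of the 5 genes were lower and 2 higher, so the sum does not stand for the list. Cd14 in this list, a coreceptor of bacterial lipopolysaccharide, had 7766 to 8194 on fresh arrays, against 7644, 2005 and 1287 on tumor-free 1, 2 and 3. The part of monocytes in the Ccr2 signal was not tested.

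Ccl9 had 3987, 3992 and 2766 on fresh arrays, against 4615, 1136 and 603 on tumor-free arrays. All fresh arrays lay above tumor-free 2 and 3 and below tumor-free 1. The log2 fold change was 1.26 ± 0.58 (95% interval -0.03 to 2.55, limma adjusted p = 0.307) with all arrays and 2.08 ± 0.33 without tumor-free 1, when it passed (adjusted p = 0.00372; 0.00102 to 0.926 over all alternatives). Ccl3 had the same arrangement, with 1714, 1369 and 1699 on fresh arrays, against 3412, 450.3 and 411.7 on tumor-free arrays. Its log2 fold change was 0.87 ± 0.73 (95% interval -0.74 to 2.49, adjusted p = 0.561), and 1.86 ± 0.46 without tumor-free 1 (adjusted p = 0.0360; 0.0111 to 0.968 over all alternatives). Without tumor-free 1, Ccl3 and Ccl9 were 2 of 9 members that passed, both higher, where 3.12% of all probe sets were higher and 7.17% passed in either direction.

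The remaining chemokine genes overlapped between fresh and tumor-free cells. Ccl2 had 134.4, 105.3 and 72.2 on fresh arrays, against 845.3, 71.3 and 60.3 on tumor-free arrays, and its log2 fold change was -0.61 ± 1.23 with all arrays but 0.57 ± 1.14 without tumor-free 1 (adjusted p = 0.827 and 0.807). Ccl7 had 44.9, 47.5 and 30.5 on fresh arrays, against 374.3, 6.78 and 3.48 on tumor-free arrays, with a log2 fold change of 0.27 ± 1.12 (adjusted p = 0.917) and of 1.91 ± 0.62 without tumor-free 1 (adjusted p = 0.0946). For these ligands of Ccr2 the mean signal of the tumor-free group was thus that of 1 array. Ccl5 had 177.5, 201 and 500.4 on fresh arrays, against 5.57, 192.8 and 204.7 on tumor-free arrays. Fresh 1 and 2 lay with tumor-free 2 and 3, fresh 3 above them, and tumor-free 1 below the offset. Ccl5 had a log2 fold change of 1.70 ± 0.99 (adjusted p = 0.400) with all arrays and 0.39 ± 0.65 without tumor-free 1 (adjusted p = 0.763).

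Ccl4 had 127.6, 145.2 and 397.5 on fresh arrays, against 228.6, 109.6 and 75.6 on tumor-free arrays (log2 fold change 0.62 ± 0.59, adjusted p = 0.613). Ccl6 had 344.5, 310.6 and 287.6 on fresh arrays, against 383.5, 252.3 and 181 on tumor-free arrays (0.26 ± 0.49, adjusted p = 0.815). Ccr1 had 917, 945.5 and 992 on fresh arrays, against 971, 567.6 and 364.6 on tumor-free arrays (0.69 ± 0.39, adjusted p = 0.393). In all 3, tumor-free 1 lay within or near the fresh range and its pair below it. The log2 ratio of Ccr2 to Ccr1 within arrays was lower on every fresh than on every tumor-free array, by 2.01 on average (SE 0.79, exact two-sided permutation p = 0.1, the smallest possible here; adjusted p = 0.4 over the 12 ratios).

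On tumor-free 1, 6 of the 7 member chemokine genes, all except Ccl5, had higher signals than on both other arrays of its group. Of all probe sets tested, 38.5% did. Of the 7 other CC chemokine genes on the array, 3 failed the filter on low values. Of the 4 tested, Ccl8 and Ccl17 were higher on tumor-free 1 than on both others, and Ccl1 and Ccl22 were not. Ccl8, a monocyte chemoattractant whose gene lies in the row with Ccl2 and Ccl7, had 465 on tumor-free 1 and 9.27 and 9.49 on its pair, and its highest signal elsewhere was 35.8. The filter took the mean over all 9 arrays, so the signal of Ccl8 on tumor-free 1 counted towards its passing. Its place among the tested genes is therefore no support for high chemokine signals on that array. Ccl17, a ligand of Ccr4, had 501 on tumor-free 1, while its pair lay below the offset. Of 14 receptor genes, typical and atypical, 5 were higher on tumor-free 1 than on both others, which is close to the 38.5% of all probe sets. The same array had the highest 3'/5' ratio of beta-actin in its group, a measure of RNA integrity, at 2.57 against at most 1.19, while cultured 1 and 2 had 2.27 and 2.36. Among the groups' marker sums it had 265 for 9 B cell genes against at least 2865 on its pair, 4471 for 13 macrophage genes against at least 13573, and 1754 for 6 fibroblast genes against at most 735. The part of these differences in its chemokine signals was not tested.

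**Figure D3:**
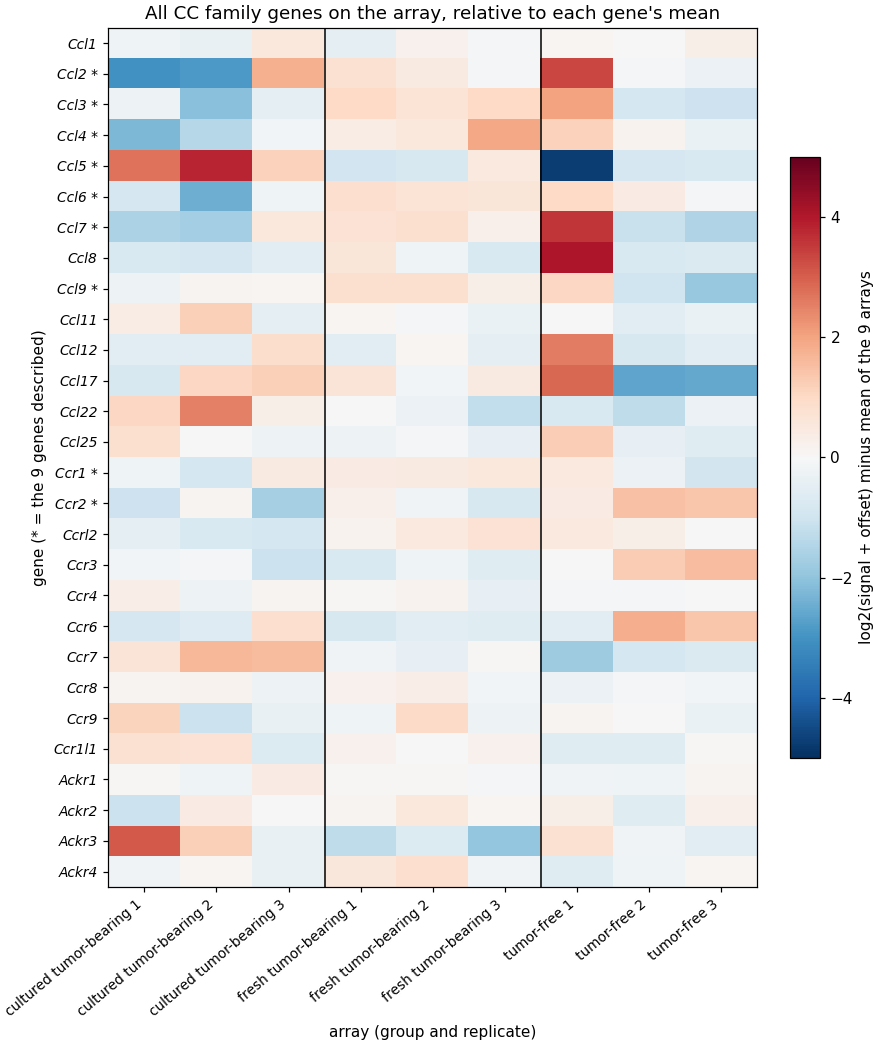
log2(signal + 7.83) of all 28 CC chemokine and receptor genes with a probe set of their own (rows; the 9 described genes have an asterisk), minus each gene's mean over the 9 arrays (columns, by group). Ccl8, Ccl7, Ccl2 and Ccl17 are red on tumor-free 1, where Ccl5 is the strongest blue of the map; Ccl5 is red on all 3 cultured arrays.

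The comparison of cultured tumor-bearing with tumor-free cells joins tumor, culture and the lack of a cultured tumor-free group, which cannot be told apart. It shares its arrays with the comparisons above, so it is no separate line of evidence. Ccl5 had the higher signals in cultured tumor-bearing cells and Ccr2 and Ccl6 the lower, each without overlap. None of the 9 members passed limma's test with all 9 arrays, where 1.23% of all probe sets did, while 1 with a higher and 3 with a lower signal had an unadjusted p below 0.05, where 7.28% of all probe sets were higher and 6.82% lower (14.1% in all). The groups did not overlap for 1 higher and 2 lower members, against 10.3% and 8.2% of all probe sets (18.5% in all). The median log2 fold change was -1.25 over the members and 0.05 over all probe sets. Without tumor-free 1 the members' median was 0.03.

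Ccl5 had 2387, 5019.8 and 804 on cultured tumor-bearing arrays, against 5.57, 192.8 and 204.7 on tumor-free arrays. The log2 fold change of 4.69 ± 0.99 (95% interval 2.51 to 6.86) was the 108th smallest p of 8695, and its limma adjusted p of 0.0502 missed the threshold. Without tumor-free 1, which alone was below the offset, the fold change was 3.37 ± 0.65 and passed (adjusted p = 0.0129; 0.00149 to 0.392 over all alternatives). Ccr2 had 182.7, 414.8 and 113 on cultured arrays, against 504, 1043 and 1011 on tumor-free arrays, and only cultured 2 came near tumor-free 1. Its log2 fold change was -1.94 ± 0.47 (95% interval -2.97 to -0.91, adjusted p = 0.0856), and -2.28 ± 0.47 without tumor-free 1, when it passed (adjusted p = 0.0182; 0.0082 to 0.502 over all alternatives). Ccl6 had 101.2, 28.3 and 163.2 on cultured arrays, against 383.5, 252.3 and 181 on tumor-free arrays (log2 fold change -1.61 ± 0.49, adjusted p = 0.166).

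The other chemokine genes overlapped between these groups. Ccl9 had 1927, 2514 and 2426 on cultured arrays, against 4615, 1136 and 603 on tumor-free arrays, and its log2 fold change was 0.63 ± 0.58 (adjusted p = 0.683) and, without tumor-free 1, 1.45 ± 0.33, when it passed (adjusted p = 0.0272; 0.0272 to 0.999 over all alternatives). Ccl4 had 14.2, 30.9 and 88.1 on cultured arrays, against 228.6, 109.6 and 75.6 on tumor-free arrays (-1.61 ± 0.59, adjusted p = 0.246). The log2 fold change of Ccl3 was -0.96 ± 0.73 with all arrays and 0.03 ± 0.46 without tumor-free 1. Ccl2 and Ccl7 were at -2.36 ± 1.23 and -1.25 ± 1.12, and Ccr1 at 0.03 ± 0.39 (95% interval -0.84 to 0.90). Without tumor-free 1, 3 of the 9 members passed, Ccl5 and Ccl9 higher and Ccr2 lower, where 3.05% of all probe sets were higher and 3.04% lower (6.08% in all). In cultured against fresh cells 1 higher and 3 lower members passed without it, where 3.23% and 2.39% of all probe sets did (5.62% in all).

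A cut at the median spike-in signal splits the arrays into a high class (tumor-free 1, fresh 1 and 2, cultured 1 and 2) and a low class. Fresh 1 and 2, at 9.91 and 9.86, lie nearer to tumor-free 2 of the low class (9.77) than to tumor-free 1 (10.36). Cultured 1 and 2 were at 10.50 and 10.49, so a class does not hold arrays of matched spike-in signal. Ccl5 was higher and Ccr2 lower in the first-named group of every comparison against tumor-free cells within both classes. In cultured against fresh cells, 7 of the 9 members had the same sign in both classes, all except Ccl2 and Ccl7. Of these 7, Ccr1 at -0.06 and Ccl9 at -0.19 were near 0 in the low class. How many of all probe sets keep their sign in this way was not counted. For Ccl5 the within-class log2 differences were 4.14 and 0.68 in cultured against fresh cells, in the high and the low class. For Ccl3 they were -2.03 and -1.45, for Ccl4 -2.30 and -2.08 and for Ccl6 -2.42 and -0.79. In fresh tumor-bearing against tumor-free cells Ccl9 was at -0.21 in the high and 1.73 in the low class, and Ccl3 at -1.15 and 1.96, so their sign did not hold within both classes. A class holds only 1 or 2 arrays of a group, and these values have no test.

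**Figure D4:**
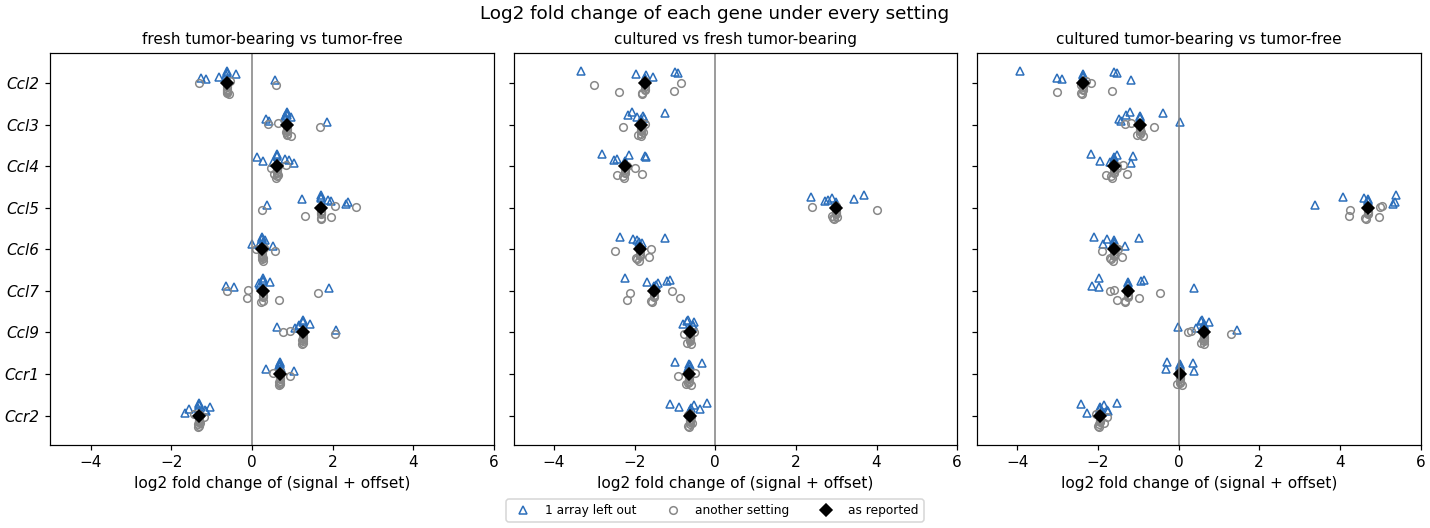
Log2 fold change of each gene in the 3 comparisons as reported (diamonds), with 1 array left out (triangles) and under the other settings tried (circles). In cultured against fresh cells all symbols of each gene lie on 1 side of 0; in fresh tumor-bearing against tumor-free cells those of Ccl2 and Ccl7 lie on both.

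Among the rest of the CC family, 2 receptor genes passed limma's test. Ccrl2, an atypical receptor-like protein that presents the chemoattractant chemerin, fell in cultured against fresh cells, with 179, 144.1 and 133.2 on cultured arrays against 281.7, 354 and 421.5 on fresh arrays (log2 fold change -1.16 ± 0.25, adjusted p = 0.0354). Ccr7, the receptor that guides mature dendritic cells and lymphocytes to lymph nodes, rose in cultured tumor-bearing against tumor-free cells, with 164, 336.4 and 313.9 on cultured arrays against 23.7, 51.9 and 57.8 on tumor-free arrays (2.42 ± 0.36, adjusted p = 0.0115). No other of 6 other CC receptor, 3 atypical receptor and 4 other CC chemokine genes tested passed in any comparison with all 9 arrays. Ccl22, a ligand of Ccr4 made by dendritic cells and macrophages, had 383.8, 1109.8 and 231.2 on cultured arrays against 181.4, 148.9 and 74.3 on fresh arrays and did not pass, although its groups did not overlap.

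In the list of genes that carry the receptors' signal, 1 passed. Of 26 tested genes of G proteins, kinases and RGS proteins, among others, Rgs2, which shortens G protein signaling, was the one that passed with all 9 arrays. It fell in fresh tumor-bearing cells, with 71.6, 70.1 and 113.7 on fresh arrays against 390, 1377 and 1293 on tumor-free arrays (log2 fold change -3.30 ± 0.48, limma adjusted p = 0.00571), and in cultured tumor-bearing against tumor-free cells (-2.34 ± 0.48, adjusted p = 0.0439). The list's median was -0.16 in fresh tumor-bearing against tumor-free, -0.06 in cultured against fresh and -0.24 in cultured tumor-bearing against tumor-free cells.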

How the data were processed

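RNA of sorted CD11b+ spleen cells was profiled on 9 one-color arrays, 5 ug of total RNA each per the labels' protocols. Each deposited number is the intensity of a probe set, not logged, which the authors made with MAS5 per the submitters' processing notes; no version or setting is named there. Every array's 2% trimmed mean was near 100.1, so arrays had been scaled before deposit and were used as such. No detection calls were used. Precision is limited by there being 3 arrays a group.

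Signals became log2(signal + 7.83), the 20th percentile of all values. Leaving out 66 controls and then the dimmest 30% by mean kept 8695. One limma model (3.58.1, R 4.3.3) with 3 group means, an intensity trend and 6 residual degrees of freedom was fitted to all of them. Its two-sided p-values were adjusted over the 8695 (Benjamini-Hochberg), with a threshold of 0.05. It was tested on simulated data. Such fold changes understate those of dim genes. Replicate numbers in the titles were not used to pair the arrays, and whether they mark pairs could not be settled from the signals. Symbols came from the platform annotation (1 symbol for 10855 probe sets, several for 396, none listed for 1237), and a gene with several probe sets is represented by the brightest. Named are the 9 members, called genes of 4 related lists (up to 4 each), defining markers, and Ccl1, Ccl8, Ccl17, Ccl22, Cd14, Hmox1, Klrk1, Mpo and Prtn3, chosen after their values were seen. Genes of like pattern were to be named only for members that passed with all arrays, and none did. The members and lists were chosen with earlier results of these data known.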

Additional observations from a re-analysis of the deposited data

How the results depend on the processing

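The numbers of probe sets called were 165, 234 and 107 in fresh tumor-bearing against tumor-free, cultured against fresh, and cultured tumor-bearing against tumor-free cells, and 0 of 9 members in each. In that order, limma's array weights, which ran between 0.299 and 5.76, gave 3174, 1902 and 1389 probe sets and 5, 7 and 5 members. Averaging the closest arrays gave 23, 21 and 0 probe sets and 0 members in each. The spike-in class as a block gave 277, 556 and 177, with 1 member in the second (Ccl4) and 1 in the third (Ccl5). Fitting only the groups compared gave 14 probe sets in the third, and 1 member (Ccl5) in the second. The larger offset and the filter at 50% each added 1 member, Ccl5, in the third. Leaving out 1 array gave 63 to 623, 74 to 489 and 24 to 529 probe sets and 0 to 2, 0 to 4 and 0 to 3 members, the highest each time without tumor-free 1. Without cultured 3, Ccl4 and Ccl6 passed in the second and Ccl5 and Ccl6 in the third, and without cultured 2 Ccr2 did. The replicate number as a block gave 200, 258 and 144 probe sets and 1 member in the third (Ccl5, adjusted p = 0.0295). Same-numbered arrays correlated at -0.20 to 0.26 in their deviations, and not every array did best with its own number. With 3 arrays a group such correlations cannot settle whether the numbers mark pairs.

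Some log2 fold changes turned their sign. In fresh tumor-bearing against tumor-free cells, leaving out 1 array gave -1.26 to 0.57 for Ccl2 and -0.63 to 1.91 for Ccl7. Array weights gave 0.59 for Ccl2. For Ccl7 the larger offset gave -0.12, averaged arrays -0.62 and the class block -0.085. In cultured tumor-bearing against tumor-free cells, leaving out 1 array gave -1.49 to 0.028 for Ccl3, -2.16 to 0.38 for Ccl7, -0.012 to 1.45 for Ccl9 and -0.31 to 0.39 for Ccr1, and median centring gave -0.038 for Ccr1. The cause was not tested. Of 564 fold changes under alternatives, 514 kept direction and side of the threshold. Ccl7 has no value at the 50% filter. Signals below the offset limit Ccl2, Ccl7 and Ccl5.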
